A study of Mus musculus with 18 samples.

Results

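The mucin-type glycosyltransferases examined here were the genes of the families Galnt, Gcnt, B3gnt, B3galt, B4galt, C1galt, St3gal, St6gal and Fut, taken by symbol from the array's annotation with pseudogenes left out. The rule found 63 genes, each with 1 probe set, among 30142 named genes. They comprised 18 initiating N-acetylgalactosaminyltransferases, 8 core and branching enzymes, 7 chain-extending N-acetylglucosaminyltransferases, 12 galactosyltransferases, 11 sialyltransferases and 7 fucosyltransferases. A further 5 probe sets were left out because they carried more than 1 symbol, among them those of B3gnt2, St6galnac1 and Fut11. Galnt17, which the platform lists as Wbscr17, was not matched by the rule and is not analysed here.

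Mucin-type O-glycosylation begins in the Golgi, where Galnt enzymes attach N-acetylgalactosamine to serine or threonine of proteins such as the airway mucins and epithelial membrane mucins. Core enzymes add the next sugar, with C1galt1 making core 1, B3gnt6 core 3 and Gcnt enzymes the branches, and B3gnt and B4galt enzymes lengthen the chains until sialic acid or fucose caps them. The families also serve other glycans, so the rule takes in enzymes of glycolipids, N-glycans and proteoglycan linkers. In the airways the finished glycans give mucus its hydration and form ligands for lectins and microbes.

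The cells came from adult mice of the strain TCF/Lef:H2B/GFP, 8 to 12 weeks old, in which a TCF/Lef promoter drives a nuclear green fluorescent protein as a reporter of Wnt/beta-catenin signalling. All groups carried this reporter and received no treatment that the labels name. Lungs were removed with trachea and bronchi attached, although the tissue label reads distal lungs, and live EpCAM-positive cells depleted of CD31 and CD45 carriers were sorted by fluorescence into GFPhigh (Wnthigh), GFPlow (Wntlow) and GFPneg (Wntnegative). Each group had 6 arrays, each from a pool of 3 to 4 animals, and the study asked how the 3 populations differ.

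The arrays formed 2 runs with 3 arrays of every group in each: experiments 2 to 5, with array medians of 4.62 to 4.77, and experiments 7 to 9, with medians of 3.55 to 3.69. Groups were therefore compared within runs, by a limma model with a run term over all named genes, and a difference was called at a Benjamini-Hochberg adjusted p under 0.05. Values are the authors' log2 values, so differences are log2 differences on the deposited scale. Background was taken as the 95th percentile of 1080 olfactory receptor probe sets, which lay at 4.70 to 4.89 in the first run and 3.68 to 4.02 in the second. In bulk samples fewer cells of a type and less RNA per cell cannot be told apart.

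Marker lists differed strongly between the sorted populations. Epithelial markers had mean levels of 11.95 to 13.29 on the arrays of all groups. All 12 measured ciliated markers were higher in Wnthigh than in both other groups, and the list's mean level ran from 13.81 to 14.56 in Wnthigh, from 8.86 to 13.36 in Wntlow and from 4.73 to 7.30 in Wntnegative. Goblet and mucous markers were highest in Wntlow, where their mean level was 11.00 to 12.53 against 7.02 to 10.09 in Wnthigh and 4.78 to 6.20 in Wntnegative, and 11 of 11 were lower in Wnthigh than in Wntlow. Alveolar type II markers had mean levels of 17.52 to 18.50 in Wntnegative, 14.47 to 17.33 in Wntlow and 11.41 to 16.25 in Wnthigh, with 10 of 11 lower in Wnthigh than in Wntnegative. Of 6 endothelial markers Pecam1, Cdh5 and Cldn5 stayed at background in every group and run, and 1 was higher and 1 lower both in Wnthigh and in Wntlow against Wntnegative. The mean level of the endothelial list was 4.55 to 5.46 in the first run and 3.78 to 3.95 in the second in Wnthigh, 5.72 to 6.08 and 4.70 to 4.91 in Wntlow, and 5.38 to 5.43 and 4.30 to 4.39 in Wntnegative. Of 7 leukocyte markers Ptprc, Tyrobp, Cd3e and Itgam stayed at background throughout, and 1 was higher and 2 lower in Wnthigh against Wntnegative. The leukocyte mean was 4.74 to 5.00 and 3.62 to 3.71 in Wnthigh, 4.73 to 4.99 and 3.75 to 3.81 in Wntlow, and 5.00 to 5.13 and 3.87 to 3.94 in Wntnegative. Of 5 mesothelial markers Wt1 stayed at background and 2 were higher in Wntlow than in Wntnegative. The mesothelial mean was 4.70 to 6.13 and 3.69 to 3.78 in Wnthigh, 5.81 to 6.94 and 4.66 to 5.85 in Wntlow, and 4.84 to 5.06 and 3.45 to 3.66 in Wntnegative. Several of these lists differed between the same groups as members described below, and their part in the results was not tested.

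**Figure D1:**
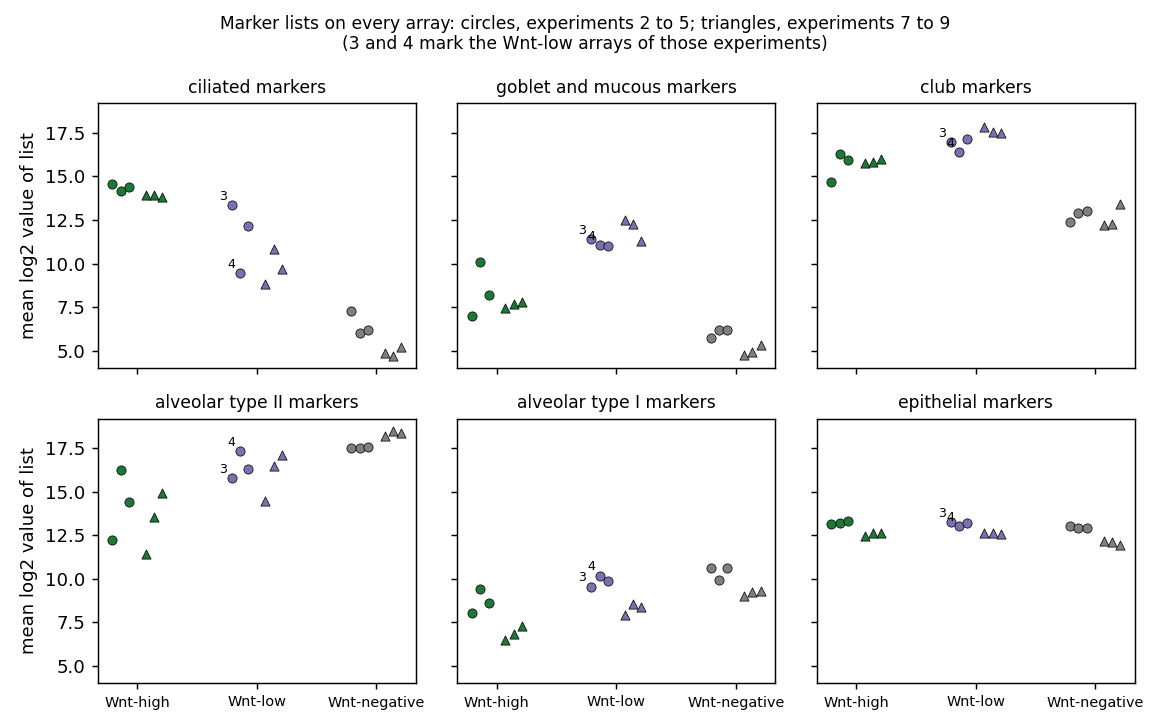
Mean log2 value of the genes of 6 marker lists on each of the 18 arrays, with circles for experiments 2 to 5 and triangles for experiments 7 to 9, in Wnthigh (green), Wntlow (violet) and Wntnegative (grey). Ciliated markers were highest in Wnthigh, goblet and club markers in Wntlow and alveolar type II markers in Wntnegative, and the Wntlow array of experiment 4 had a lower ciliated level, 9.45, than the other Wntlow arrays of its run.

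The Wntlow array of experiment 4 had a lower ciliated level, 9.45, than the other Wntlow arrays of the first run, at 12.15 and 13.36, although second-run Wntlow arrays ran from 8.86 to 10.84. Dixon's test was applied to the values of the members given in full, minus their run means. No array passed the critical value in any of 60 sets of 6 arrays. Each run mean came from 3 arrays of a group, so an array far from it moved the others the opposite way. This limits the gap that the test measures against the range, so an outlying array could hardly pass. The test therefore does not decide whether the Wntlow array of experiment 4 was an outlier. Several members on this array read nearer to Wntnegative, with B3gnt4 at 4.95, Gcnt2 at 7.90, St3gal1 at 10.77 and St6galnac2 at 8.83. Leaving it out changed the members called from 14 higher and 12 lower to 16 and 16 for Wntlow against Wntnegative (25.5% to 27.5% of all genes). For Wnthigh against Wntlow the change was from 16 and 14 to 16 and 13 (27.9% to 26.1% of all genes). Every difference given in full below stayed called. Against Wntnegative, the difference of Wntlow moved from 3.09 to 3.35 for Galnt5, from 2.69 to 2.97 for Gcnt2, from -2.07 to -2.35 for St3gal1, from 1.84 to 2.07 for Galnt12 and from 1.15 to 1.09 for St6gal1. Against Wnthigh, it moved from -1.35 to -1.06 for St3gal1 and from 1.64 to 1.49 for St3gal2 (Wnthigh minus Wntlow).

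In Wnthigh against Wntnegative, 20 of the 63 members were higher and 19 lower, or 61.9% in either direction, where 40.3% of all genes were called. The median difference was 0.013 over the members and -0.046 over all genes. Over all genes 15.7% were higher and 24.6% lower. With the further condition that the size reach 1, 12 members were higher (6.62% of all genes) and 9 lower (7.28%), or 13.9% of all genes in either direction. In Wntlow against Wntnegative, 14 members were higher and 12 lower (41.3%), beside 25.5% of all genes (12.3% higher and 13.2% lower), and the median was -0.032 against -0.029. With a size of 1 or more, 6 were higher (4.32% of all genes) and 5 lower (3.32%). Between Wnthigh and Wntlow, 16 were higher in Wnthigh and 14 lower (47.6%), beside 27.9% of all genes (11.4% higher and 16.4% lower), with medians of 0.011 and -0.013, and with a size of 1 or more 7 were higher (4.27%) and 6 lower (4.83%).

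The members held fewer dim genes than the array as a whole. Of the 63 members, 18 (28.6%) did not exceed background in any group and run, against 40.7% of all genes. Of the 17865 genes above background somewhere, 62.2% were called in Wnthigh against Wntnegative, 40.3% in Wntlow against Wntnegative and 45.6% in Wnthigh against Wntlow. Of the 45 members above background somewhere, 77.8%, 55.6% and 66.7% were called. A gene that exceeds background only in the group where it is high had to differ, so these shares are descriptions. The 18 members at background held 2 of the higher calls (B4galt6 and Galntl6) and 2 of the lower ones (B3gnt9 and St6galnac3) in Wnthigh against Wntnegative, with differences of -0.37 to 0.28. All members called had the same sign in both runs, and the arrays of the compared groups lay apart the same way in both runs for 33 members in Wnthigh against Wntnegative (30.7% of all genes), 20 in Wntlow against Wntnegative (15.6%) and 23 in Wnthigh against Wntlow (18.4%). The 3 comparisons share arrays and are not independent. Without the run term 6 members were higher and 4 lower in Wnthigh against Wntnegative (9.37% of all genes called), 4 and 2 in Wntlow against Wntnegative (3.52%) and 2 and 2 in Wnthigh against Wntlow (4.48%).

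Among the 45 members above background somewhere, 20 had their highest level in Wnthigh in both runs, 7 in Wntlow and 16 in Wntnegative. In 13, 5 and 6 of these the highest group did not overlap any other group in either run, against 7.47%, 2.04% and 5.7% of all genes. None of the members at background in every group and run met this condition, so the counts are the same over all 63. B3gnt7 and Gcnt4, both counted for Wnthigh, had means at background in every group in the second run. The counts of 20, 7 and 16 have no share over all genes beside them and are descriptions. Fut2, for example, exceeded background only in Wntlow. The 13 of Wnthigh were Galnt6, Galnt18, Gcnt2, Gcnt4, B3gnt4, B3gnt7, B3galt1, B4galt1, B4galt2, B4galt5, St3gal2, St3gal6 and Fut4. Wntlow had Galnt5, St3gal4, St3gal5, St6gal1 and Fut2, and Wntnegative had Galnt13, C1galt1c1, B4galt3, St3gal1, St6galnac2 and Fut8. The initiating enzymes, the sialyltransferases and the fucosyltransferases each held members of all 3 patterns, and the core enzymes and galactosyltransferases held members highest in Wnthigh and in Wntnegative.

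**Figure D2:**
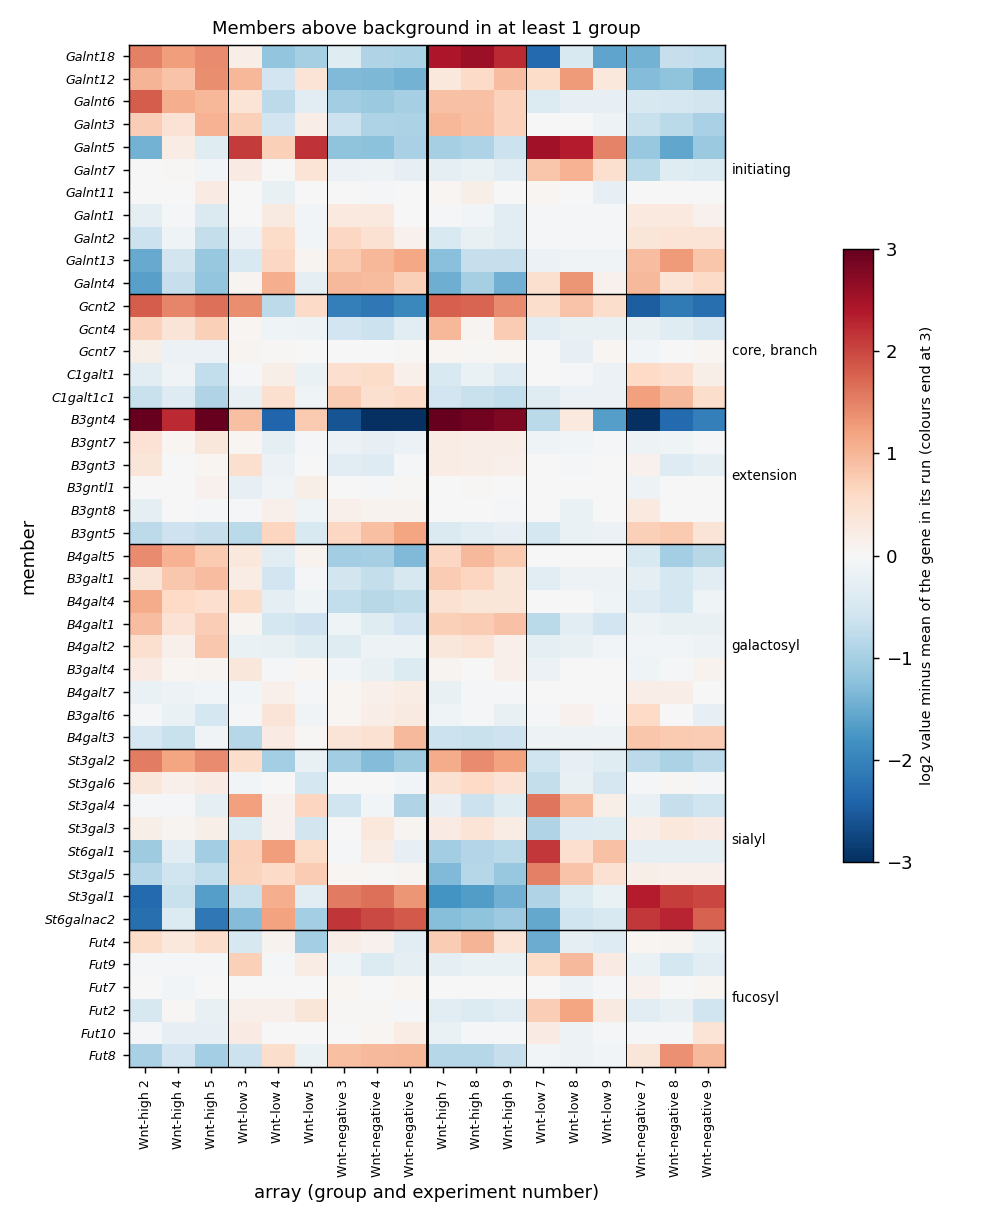
Log2 value of the 45 members above background in at least 1 group, minus the mean of the gene over the 9 arrays of its run, on all 18 arrays (columns, first run left of the thick line), ordered by role and then by the difference between Wnthigh and Wntnegative. Red rows at the left of each run are members highest in Wnthigh, such as Galnt18 and B3gnt4, red on the right marks those highest in Wntnegative, such as St6galnac2, and Galnt5 and St6gal1 are reddest in Wntlow.

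Promoter stretches are shown for the leading member of each pattern with a single RefSeq promoter, because the sort itself reads a TCF/Lef promoter and the ciliated markers, whose promoters are known targets of RFX factors, were highest in Wnthigh. Each is at most 250 bases before the start site outside the annotated gene, in gene orientation, from RefSeq on GRCm38.p6. B3gnt4, highest in Wnthigh, lies at chr5:123508232-123508460 on the plus strand, St3gal4, highest in Wntlow, at chr9:35116865-35117114 on the minus strand, and B4galt3, highest in Wntnegative, at chr1:171270078-171270327 on the plus strand. Capitals mark a TCF/Lef core (CTTTGA or CTTTGT) or an RFX half-site (GTTGCC) on either strand.
B3gnt4 promoter: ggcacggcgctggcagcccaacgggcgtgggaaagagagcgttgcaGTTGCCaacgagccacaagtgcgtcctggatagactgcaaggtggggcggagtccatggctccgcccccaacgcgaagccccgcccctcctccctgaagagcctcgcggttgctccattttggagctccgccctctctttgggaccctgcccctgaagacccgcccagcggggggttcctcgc
St3gal4 promoter: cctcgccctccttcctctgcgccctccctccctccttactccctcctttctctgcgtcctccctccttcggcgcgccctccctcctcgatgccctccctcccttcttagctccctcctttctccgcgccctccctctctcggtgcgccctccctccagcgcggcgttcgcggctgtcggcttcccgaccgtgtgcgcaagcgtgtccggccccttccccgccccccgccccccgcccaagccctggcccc
B4galt3 promoter: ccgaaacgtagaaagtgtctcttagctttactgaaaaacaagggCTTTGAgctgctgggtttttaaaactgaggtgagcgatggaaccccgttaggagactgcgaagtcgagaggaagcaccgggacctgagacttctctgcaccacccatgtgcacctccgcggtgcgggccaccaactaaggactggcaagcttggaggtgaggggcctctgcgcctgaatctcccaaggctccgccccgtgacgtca
B3gnt4 held 1 RFX half-site, St3gal4 held no match, and B4galt3 held 1 TCF/Lef core. RefSeq promoters matched 46 of the 63 members. Over 66 promoters of these members, 17 (25.8%) held a TCF/Lef core in the 250 bases before the start, against 27.6% of 32851 promoters in all, and 4 (6.06%) held the RFX half-site, against 10.4%. These are matches of letters only.

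The initiating enzymes went in both directions. Galnt18, a member of the divergent Y subfamily of the family, read 11.98, 12.14 and 12.25 (lowest, median and highest of 3 arrays, in this order throughout) in Wnthigh in the first run and 11.31, 11.5 and 11.65 in the second. It read 9.56, 9.74 and 10.94, then 6.75, 7.49 and 8.61, in Wntlow, and 9.78, 9.82 and 10.38, then 7.65, 8.33 and 8.39, in Wntnegative. Wnthigh lay above both other groups, which overlapped in both runs. Galnt18 was higher in Wnthigh than in Wntnegative by 2.74 (SE 0.36, limma adjusted p = 1.11e-05) and than in Wntlow by 2.96 (SE 0.36, adjusted p = 1.47e-05), and the difference of -0.21 between Wntlow and Wntnegative did not pass (adjusted p = 0.723).

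Galnt12, a close relative of Galnt4, was higher than Wntnegative in both GFP-positive groups, by 2.19 (SE 0.25, limma adjusted p = 1.83e-06) in Wnthigh and 1.84 (SE 0.25, adjusted p = 5.58e-05) in Wntlow. Its first-run arrays read 8.32, 8.5 and 8.88 in Wnthigh, 6.89, 7.89 and 8.47 in Wntlow and 6.05, 6.13 and 6.15 in Wntnegative. Wnthigh and Wntlow overlapped in both runs. Galnt3 and Galnt6, close relatives that act on mucins, were higher in Wnthigh than in Wntnegative by 1.63 and 1.84. Galnt6 in Wntnegative was at background (4.38 to 4.48, then 3.05 to 3.13). With values held at background its differences from Wntnegative and from Wntlow were at least 1.22 and at least 1.08. The measured differences were 1.84 and 1.32 (limma adjusted p = 1.77e-06 and 0.000102).

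Galnt5 had its highest level in Wntlow. It read 6.61, 8.00 and 8.07 there in the first run and 6.41, 7.28 and 7.43 in the second. In Wnthigh the values were 4.48, 5.55 and 6.14, then 3.93, 3.98 and 4.27, and in Wntnegative 4.67, 4.70 and 4.94, then 3.36, 3.77 and 3.80, around background. Wntlow overlapped no other group. Galnt5 was higher in Wntlow than in Wntnegative by at least 2.91 (measured 3.09, SE 0.30, limma adjusted p = 3.22e-06) and lower in Wnthigh than in Wntlow (-2.57, SE 0.30, adjusted p = 1e-05). Galnt7, an enzyme for partly glycosylated peptides, had a smaller difference of the same direction, 0.86 against Wntnegative (adjusted p = 0.000718).

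Galnt13 and Galnt4 had their lowest levels in Wnthigh. For Galnt13, a close relative of Galnt1, the 3 groups did not overlap in either run: 6.45, 6.84 and 7.42 in Wnthigh, 7.51, 8.05 and 8.60 in Wntlow and 8.76, 8.97 and 9.13 in Wntnegative in the first run, and the same order in the second. It was lower than in Wntnegative in Wnthigh (-1.96, SE 0.18, limma adjusted p = 2.69e-07) and in Wntlow (-1.02, SE 0.18, adjusted p = 0.000633). Galnt4, which like Galnt7 acts on partly glycosylated peptides, read 8.52, 8.98 and 9.46 in Wnthigh, 9.88, 10.23 and 11.25 in Wntlow and 10.87, 11.11 and 11.13 in Wntnegative in the first run. Here Wntlow and Wntnegative overlapped in both runs, and Wnthigh was lower than Wntnegative (-2.0, SE 0.25, limma adjusted p = 5.4e-06) and than Wntlow (-1.70, SE 0.25, adjusted p = 5.91e-05).

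The widely expressed Galnt1 and Galnt2 were lower in Wnthigh than in Wntnegative by smaller amounts, -0.43 and -0.82. Galnt11, an enzyme known to modify Notch1, did not pass in any comparison, with differences of -0.05 to 0.14, but was higher in Wnthigh than in Wntlow with a replicate block (adjusted p = 0.0246 against 0.0765 without it). With that block Galnt1 was also lower in Wntlow than in Wntnegative (-0.22, adjusted p = 0.00952 against 0.0576) and in Wnthigh than in Wntlow (-0.21, adjusted p = 0.0322 against 0.0694). The remaining 7 of the 18 matched, Galnt9, Galnt10, Galnt14, Galnt15, Galnt16, Galntl5 and Galntl6, did not exceed background. In all, 5 of 18 initiating enzymes were higher and 4 lower in Wnthigh against Wntnegative (9 of 18, beside 40.3% of all genes), 4 and 2 in Wntlow against Wntnegative (33.3%, beside 25.5%), and 3 and 5 in Wnthigh against Wntlow (44.4%, beside 27.9%).

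**Figure D3:**
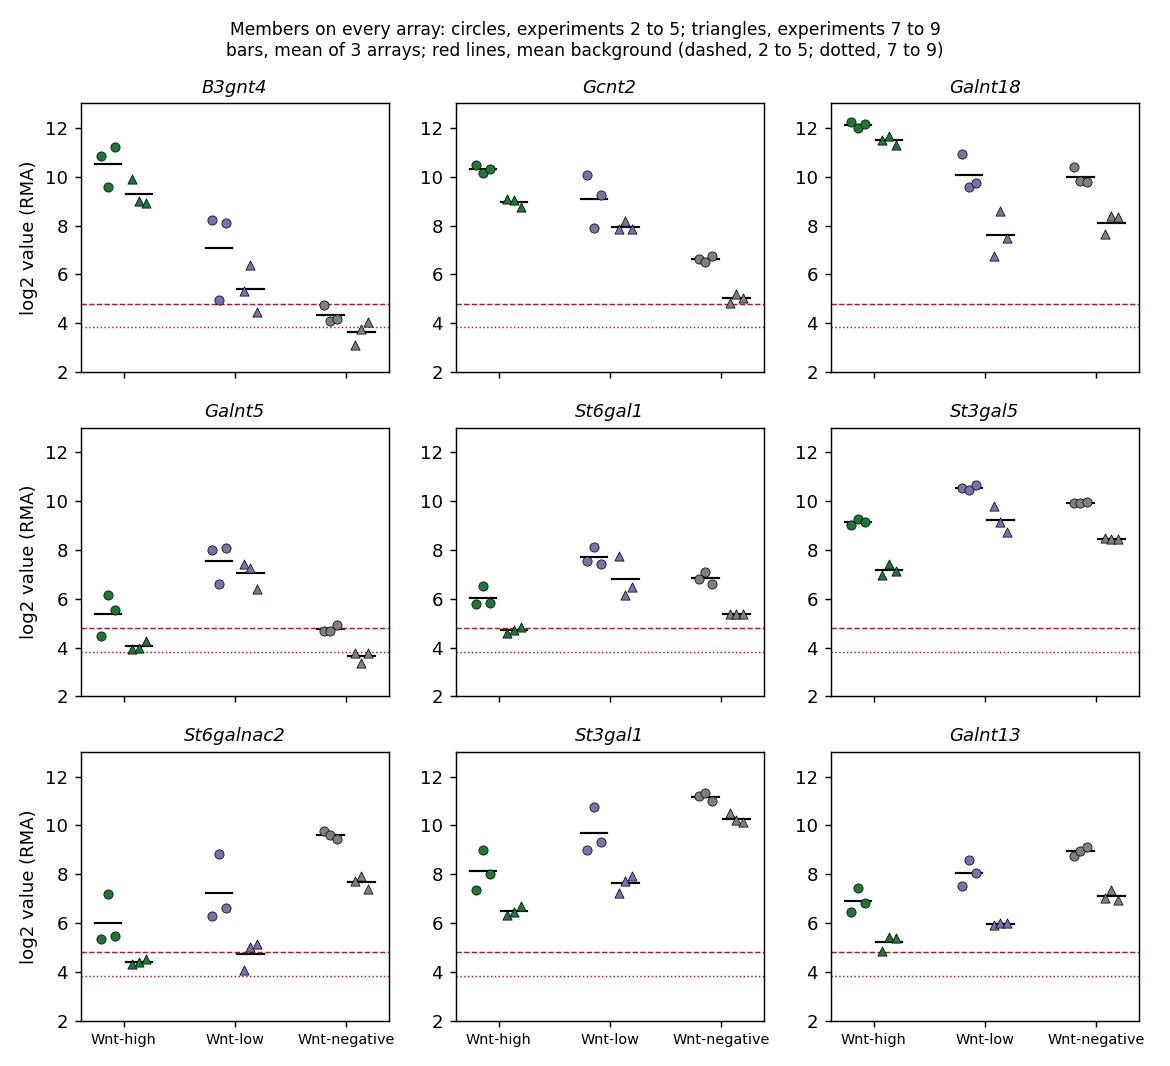
Deposited log2 values of 9 members on every array, with bars at the mean of the 3 arrays of a group in a run and red lines at the mean background of each run. The top row holds members highest in Wnthigh, the middle row members highest in Wntlow and the bottom row members highest in Wntnegative; Galnt5 in Wntnegative and B3gnt4 in Wntnegative lie near or below the background lines.

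Both genes of core 1 synthesis had their lowest level in Wnthigh and their highest in Wntnegative. C1galt1c1, the chaperone (Cosmc) that the core 1 galactosyltransferase needs to fold, read 5.53, 5.76 and 6.04 in Wnthigh, 6.22, 6.31 and 6.91 in Wntlow and 6.92, 7.00 and 7.20 in Wntnegative in the first run. The groups kept this order without overlap in the second run, at 4.16 to 4.32, 4.53 to 4.72 and 5.42 to 6.13. It was lower in Wnthigh than in Wntnegative (-1.42, SE 0.15, limma adjusted p = 8.9e-07) and lower in Wntlow (-0.85, SE 0.15, adjusted p = 0.000467). C1galt1, the enzyme itself, was lower by less, -0.78 (SE 0.11, limma adjusted p = 1.55e-05) in Wnthigh and -0.46 (adjusted p = 0.00437) in Wntlow. In the first run its Wntlow arrays overlapped those of Wnthigh and those of Wntnegative.

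Gcnt2, which makes the I-type branch on lactosamine chains, read 10.15, 10.33 and 10.49 in Wnthigh, 7.90, 9.26 and 10.07 in Wntlow and 6.52, 6.62 and 6.74 in Wntnegative in the first run. In the second run it read 8.74, 9.06 and 9.10, then 7.84, 7.85 and 8.17, then 4.83, 5.04 and 5.19. No 2 groups overlapped in either run. Gcnt2 was higher than in Wntnegative by 3.82 in Wnthigh (SE 0.25, limma adjusted p = 8.11e-09) and 2.69 in Wntlow (SE 0.25, adjusted p = 2.11e-06), and higher in Wnthigh than in Wntlow by 1.13 (adjusted p = 0.0022).

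The core 2 enzymes Gcnt1 and Gcnt3 and the core 3 enzyme B3gnt6 were at background in every group. Gcnt3, the mucin-type core 2 enzyme, read 4.04 to 4.08 on all first-run arrays and 3.17 to 3.5 on all second-run arrays, also in Wntlow, where goblet markers were highest. Probe sets at background bound a level from above only. Gcnt4, a further core 2 enzyme, was higher in Wnthigh than in Wntnegative as measured (1.05, limma adjusted p = 4.46e-06), but at levels of 4.55 to 4.87 and 3.19 to 4.12 that lay around background, so no bound on its difference is given. Gcnt7 passed in no comparison.

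Among the chain-extending enzymes B3gnt4, a poly-lactosamine synthase, had the largest difference of all members in Wnthigh against Wntnegative. It read 9.56, 10.83 and 11.22 in Wnthigh, 4.95, 8.10 and 8.23 in Wntlow and 4.09, 4.18 and 4.74 in Wntnegative in the first run, and 8.91, 9.00 and 9.92, then 4.46, 5.30 and 6.39, then 3.12, 3.78 and 4.06 in the second. The groups did not overlap, Wntlow spread widely between the others, and Wntnegative was at background. With values held at background, B3gnt4 was higher than in Wntnegative by at least 5.49 in Wnthigh (measured 5.91, SE 0.52, limma adjusted p = 1.19e-07) and by at least 1.83 in Wntlow (measured 2.24, SE 0.52, adjusted p = 0.00388). Wnthigh exceeded Wntlow by 3.67 (SE 0.52, adjusted p = 4.33e-05). Without the Wntlow array of experiment 4 the Wntlow differences were 2.65 and 3.26.

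B3gnt5, which starts the lacto series of glycolipids, had the opposite direction. Its first-run values were 5.05 to 5.22 in Wnthigh, 5.03 to 6.49 in Wntlow and 6.45 to 7.01 in Wntnegative, and in the second run only Wntnegative, at 4.44 to 4.83, was above background. With values held at background, it was lower than in Wntnegative by bounds of -1.22 in Wnthigh and -0.98 in Wntlow. The measured differences were -1.27 and -1.01 (limma adjusted p = 6.39e-05 and 0.00127). B3gnt3, which extends core 1, was higher in Wnthigh than in Wntnegative by 0.38 (limma adjusted p = 0.0108). B3gnt7, a keratan sulfate enzyme, was higher in Wnthigh than in Wntnegative as measured (0.39, limma adjusted p = 7.61e-05). Its group means were at background in every group in the second run, so no bound on its difference is given. B3gnt8 was lower by a small amount (-0.18, adjusted p = 0.0445), a call lost with a replicate block (adjusted p = 0.0883). B3gntl1 passed in no comparison, and B3gnt9 did not exceed background.

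Of the 12 galactosyltransferases 7 were higher (B4galt6 among them, at background) and 3 lower in Wnthigh against Wntnegative, beside 15.7% and 24.6% of all genes, with a median difference of 0.256. In Wnthigh against Wntlow 5 were higher and 0 lower by limma (5 and 2 at an unadjusted p under 0.05), beside 11.4% and 16.4% of all genes. With a replicate block B4galt3 was also lower there (-0.37, adjusted p = 0.00939 against 0.103 without the block). B4galt5, a lactosylceramide synthase that also acts on O-glycans, read 7.34, 7.59 and 7.96 in Wnthigh, 6.24, 6.65 and 6.87 in Wntlow and 5.23, 5.5 and 5.54 in Wntnegative in the first run. All 3 groups lay apart in both runs. The difference between Wnthigh and Wntnegative was 1.88 (SE 0.15, limma adjusted p = 4.3e-08) and that between Wntlow and Wntnegative 0.96 (SE 0.15, adjusted p = 0.00018).

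B4galt1, the main lactosamine-forming enzyme and the catalytic subunit of lactose synthase, read 11.03, 11.34 and 11.53 in Wnthigh, 9.98, 10.07 and 10.69 in Wntlow and 10.03, 10.24 and 10.46 in Wntnegative in the first run. In the second run it read 9.80 to 9.96, 8.27 to 8.75 and 8.86 to 8.93. Wnthigh stood apart from both groups in both runs, and Wntlow lay below Wntnegative in the second run, though their difference of -0.18 did not pass (adjusted p = 0.344). The difference of Wnthigh was 1.02 from Wntnegative (SE 0.13, limma adjusted p = 7.33e-06) and 1.21 from Wntlow (SE 0.13, adjusted p = 6.22e-06). B4galt2 and B4galt4, further lactosamine enzymes, were higher in Wnthigh than in Wntnegative by 0.55 and 1.13, and B3galt1, which makes type 1 chains, by at least 0.85. B4galt3 went the other way, at 9.68, 9.76 and 10.27 in Wntnegative, 8.45, 9.34 and 9.54 in Wntlow and 8.63, 8.80 and 9.20 in Wnthigh in the first run. Its difference between Wnthigh and Wntnegative was -1.23 (SE 0.16, limma adjusted p = 8.7e-06).

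Of the linker enzymes of proteoglycans, B4galt7 and B3galt6 were lower in Wnthigh than in Wntnegative by small amounts, -0.26 and -0.34. B3galt4, a ganglioside enzyme, was higher by 0.23. B3galt2, B3galt5 and B4galt6 did not exceed background.

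Sialyltransferases of the same acceptor had opposite patterns. St3gal1 and St3gal2 both add sialic acid to the galactose of core 1. St3gal1 read 11.00, 11.22 and 11.33 in Wntnegative, 9.01, 9.32 and 10.77 in Wntlow and 7.34, 8.02 and 9.01 in Wnthigh in the first run, and 10.13 to 10.49, 7.24 to 7.93 and 6.35 to 6.70 in the second. Wntnegative lay clear of the others, and Wntlow and Wnthigh met at 9.01 in the first run. St3gal1 was lower in Wnthigh than in Wntnegative (-3.42, SE 0.32, limma adjusted p = 2.24e-07) and than in Wntlow (-1.35, SE 0.32, adjusted p = 0.0034), and lower in Wntlow than in Wntnegative (-2.07, SE 0.32, adjusted p = 0.000163).

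St3gal2 read 8.14, 8.39 and 8.49 in Wnthigh, 5.95, 6.73 and 7.49 in Wntlow and 5.67, 5.90 and 5.91 in Wntnegative in the first run. The groups kept that order without overlap in the second run, at 6.65 to 6.94, 4.92 to 5.27 and 4.58 to 4.75. St3gal2 was higher in Wnthigh than in Wntnegative by 2.30 (SE 0.19, limma adjusted p = 5.86e-08) and than in Wntlow by 1.64 (SE 0.19, adjusted p = 9.07e-06).

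St6galnac2, which adds sialic acid to the inner N-acetylgalactosamine, shared the direction of St3gal1. It read 9.46, 9.59 and 9.76 in Wntnegative, 6.31, 6.61 and 8.83 in Wntlow and 5.35, 5.48 and 7.20 in Wnthigh in the first run, and 7.39 to 7.91, 4.08 to 5.16 and 4.33 to 4.52 in the second. Wntlow and Wnthigh overlapped in both runs. The differences from Wntnegative were -3.43 in Wnthigh (SE 0.40, limma adjusted p = 2.83e-06) and -2.64 in Wntlow (SE 0.40, adjusted p = 0.000152), and without the Wntlow array of experiment 4 the latter was -3.03.

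St3gal4, St3gal5 and St6gal1 were highest in Wntlow. St6gal1, which caps N-glycan lactosamine, read 7.41, 7.55 and 8.12 in Wntlow, 6.62, 6.80 and 7.08 in Wntnegative and 5.78, 5.81 and 6.54 in Wnthigh in the first run, and the groups kept this order without overlap in the second. It was higher in Wntlow than in Wntnegative by 1.15 (SE 0.23, limma adjusted p = 0.00157) and lower in Wnthigh than in Wntlow (-1.86, SE 0.23, adjusted p = 1.64e-05). St3gal5, the GM3 ganglioside synthase, had the same order, at 10.45 to 10.64, 9.92 to 9.96 and 9.03 to 9.28 in the first run, with a difference of -1.72 between Wnthigh and Wntlow (SE 0.15, limma adjusted p = 2.27e-06). St3gal4, which caps lactosamine of selectin ligands, was higher in Wntlow than in Wntnegative by 1.31 (SE 0.23, limma adjusted p = 0.000477) and lower in Wnthigh than in Wntlow (-1.07, adjusted p = 0.00177), while Wnthigh and Wntnegative overlapped.

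St3gal6 and St3gal3, which act on lactosamine too, were lower in Wntlow than in Wnthigh, with differences of 0.72 and 0.63 between Wnthigh and Wntlow (limma adjusted p = 8.28e-05 and 0.000972). St6gal2, St6galnac3 and St6galnac5 did not exceed background; the small measured differences of St6galnac3 from Wntnegative lost their calls with a replicate block (adjusted p = 0.0691 and 0.0553). Over the family, 9 of 11 differed between Wntlow and Wntnegative (4 higher and 5 lower), against 25.5% of all genes. In Wnthigh against Wntnegative 7 of 11 differed (2 higher and 5 lower), against 40.3%. Both counts of lower members include St6galnac3, which was at background.

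Fut8, which adds the core fucose of N-glycans, was the fucosyltransferase with the largest difference. It read 8.56, 8.61 and 8.64 in Wntnegative, 7.01, 7.45 and 8.18 in Wntlow and 6.63, 6.67 and 7.07 in Wnthigh in the first run. Wntnegative lay above both other groups in both runs. The difference was -1.76 in Wnthigh (SE 0.17, limma adjusted p = 4.25e-07) and -1.03 in Wntlow (SE 0.17, adjusted p = 0.000329). Fut4, which makes Lewis x type structures, was higher in Wnthigh than in Wntlow by 1.19 (SE 0.22, limma adjusted p = 0.000407), at 7.67 to 7.91 against 6.33 to 7.45 in the first run.

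Fut2, the secretor enzyme that makes H antigen on mucins, was highest in Wntlow at levels close to background, 4.98 to 5.20 in the first run and 3.93 to 4.83 in the second. Held at background, it was higher in Wntlow than in Wntnegative by at least 0.34. In Wnthigh it was lower than in Wntlow with a bound of -0.41. The measured differences were 0.67 and -0.77 (limma adjusted p = 0.0069 and 0.0018). Fut9 had a like difference, at least 0.36 against Wntnegative. Fut10 was lower in Wnthigh than in Wntnegative with a bound of -0.23 (measured -0.24, limma adjusted p = 0.0393), a call lost with a replicate block (adjusted p = 0.0803). Fut7 passed in no comparison, and Fut1 stayed at background.

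**Figure D4:**
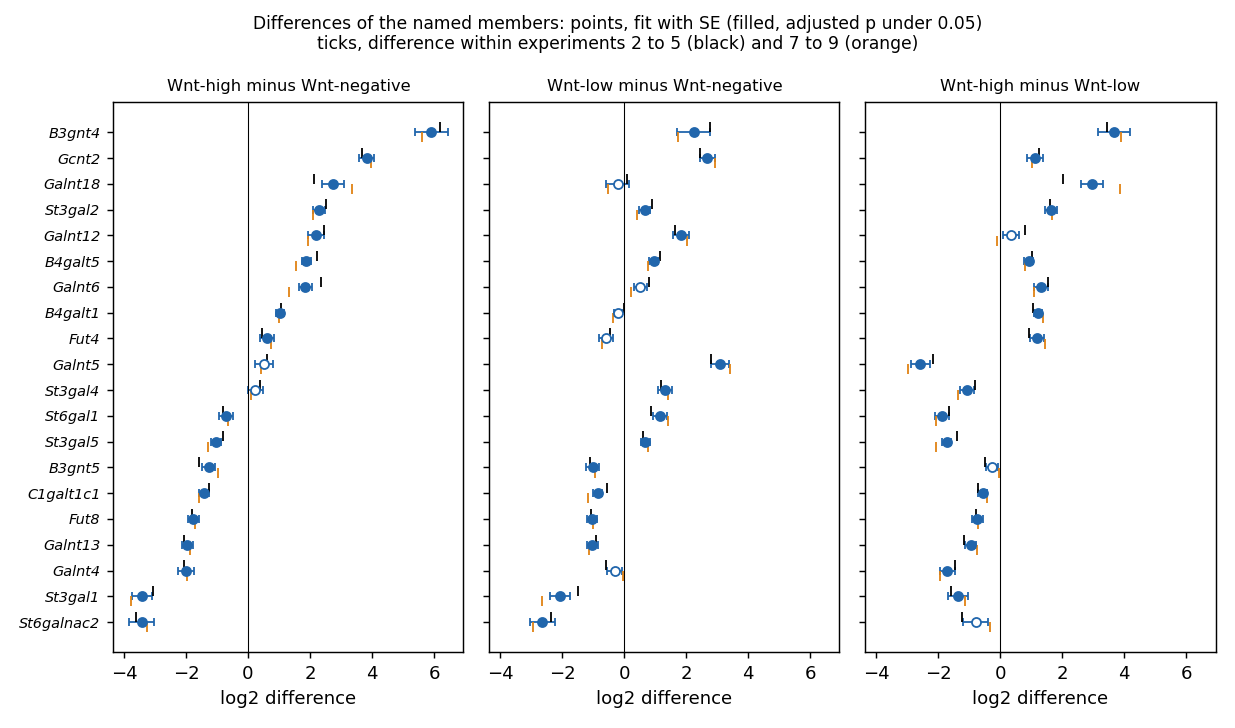
Log2 differences of the 20 members given in full, with the fitted value and its SE (filled points pass at an adjusted p under 0.05) and ticks for the difference within experiments 2 to 5 (black) and 7 to 9 (orange), in the 3 comparisons. B3gnt4 and Gcnt2 lie furthest right and St3gal1 and St6galnac2 furthest left in Wnthigh against Wntnegative, while Galnt5 and St6gal1 are to the right in Wntlow against Wntnegative and to the left in Wnthigh against Wntlow.

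Several of the proteins that carry the glycans were highest in Wntlow. Of 13 measured mucin-type proteins 6 were higher and 0 lower in Wntlow than in Wntnegative by limma (12.3% and 13.2% of all genes), and 0 higher and 6 lower in Wnthigh than in Wntlow (11.4% and 16.4% of all genes). At an unadjusted p under 0.05 the counts were 7 and 1, and 0 and 7. Muc5b, a secreted gel-forming mucin, was higher in Wntlow than in Wntnegative by 10.38 (SE 0.82, limma adjusted p = 5.15e-07) and in Wnthigh by 3.70 (SE 0.82, adjusted p = 0.00159). Muc20 and Muc4, membrane mucins, were higher in Wntlow than in Wntnegative by 3.70 and 2.08. Muc4 was also higher in Wnthigh than in Wntnegative, by 1.99 (limma adjusted p = 0.000306), with means of 10.92 in Wnthigh and 11.01 in Wntlow. Muc20 did not pass between Wnthigh and Wntnegative (-0.63, limma adjusted p = 0.344). Muc1, a membrane mucin of the alveolar and airway surface, was lower in Wnthigh than in Wntnegative (-4.48, SE 0.60, limma adjusted p = 1.14e-05) and than in Wntlow (-4.16, SE 0.60, adjusted p = 5.11e-05).

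Of 29 genes that make or transport the donor sugars, 7 were higher and 17 lower in Wnthigh than in Wntlow. This called share of 82.8% stands beside 27.9% of all genes and 45.6% of the genes above background somewhere. The list's called share was 65.5% in Wnthigh against Wntnegative (40.3% of all genes) and 37.9% in Wntlow against Wntnegative (25.5% of all genes). Within the hexosamine route to the N-acetylgalactosamine donor, 3 enzymes were lower in Wnthigh than in both other groups. Their differences from Wntnegative and Wntlow were -1.54 and -1.28 for Gfpt1, its first enzyme, -1.24 and -1.31 for Pgm3, and -1.11 and -1.10 for Uap1, its last. Gnpnat1, the enzyme between Gfpt1 and Pgm3, was instead higher in Wnthigh than in Wntlow (0.49, limma adjusted p = 0.00743) and did not pass against Wntnegative (0.27, adjusted p = 0.108). Gfpt2, a second form of the first enzyme, did not pass between Wnthigh and Wntnegative (0.11, adjusted p = 0.626) and was lower in Wnthigh than in Wntlow (-1.25, adjusted p = 1.49e-05). Of the sialic acid genes, Nans, Nanp and Cmas were higher in Wntlow than in Wntnegative, by 0.62, 0.86 and 1.27, and lower in Wnthigh than in Wntlow, with differences of -0.96, -0.70 and -0.63. Gne, the first enzyme of sialic acid synthesis, passed in no comparison (-0.03 in Wntlow against Wntnegative, limma adjusted p = 0.573), and the transporter Slc35a1 did not pass there (0.07, adjusted p = 0.578). In the other direction, Slc35d2, a transporter of nucleotide sugars, and Galk2, a kinase of N-acetylgalactosamine, were higher in Wnthigh than in Wntnegative by 3.57 (SE 0.23, limma adjusted p = 7.44e-09) and 2.5 (SE 0.17, adjusted p = 1.04e-08).

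Of 25 other finishing enzymes 4 were higher and 4 lower in Wnthigh against Wntnegative, or 32.0%, beside 40.3% of all genes. Polysialyltransferase St8sia2 was higher in Wnthigh than in Wntnegative by 4.57 (SE 0.25, limma adjusted p = 4.29e-09) and than in Wntlow by 3.08 (SE 0.25, adjusted p = 1.32e-06). St8sia6, which adds a further sialic acid to O-glycans, was lower in Wnthigh than in Wntlow (-3.83, SE 0.47, limma adjusted p = 1.45e-05). These lists were chosen with earlier results of these data known, as were the members.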

How the data were processed

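Sorted cells of 3 groups were hybridised to 18 Affymetrix arrays after amplification of 8 ng of RNA with the WT Pico kit. The authors deposited log2 values per probe set made with RMA, per the submitters' processing notes; the genome build is not given in the sources used here, nor is the software. Values reached 19.93, above the log2 limit of a 16-bit scanner, so scale beyond log2 is unknown. The 2 runs were read from array medians, not from a label. Of the probe sets that are not controls, 30604 had 1 symbol, 2146 several and 33206 none; each of 30142 genes took its probe set with the highest mean. Differences were fitted with limma 3.58.1 in R 4.3.3 (lmFit, eBayes, two-sided, group and run as terms), adjusted by Benjamini-Hochberg over all genes, threshold 0.05, and the code was tested on simulated data. Replicates are pools from numbered experiments; p-values measure the spread between them.

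Members and lists were chosen with earlier results of these data known. Fully described are, per comparison, up to 6 members in each direction with a called difference of at least 1, the same sign in both runs and the higher group above background in both; other members, and the genes of the other lists named with values, were named after their values were seen. Antisense Galnt6os and the pseudogene Fut4-ps1 were left out, and names ending in a family suffix (St6galnac, Galntl, B3gntl, C1galt1c1) were kept. Where "at least" or "bound" is written, values below each array's background were held at it before group means were subtracted. These bounds were not tested, and the p-values beside them belong to the measured differences. The labels number the experiments that groups share, which pairs the arrays: residuals of 16 same-numbered pairs correlated at 0.486 to 0.802, and at 0.003 to 0.516 once run means were removed. The number of arrays limits the precision.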

Additional observations from a re-analysis of the deposited data

How the results depend on the processing

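The 35 differences given in full were refitted under 20 other settings. In these refits 672 values kept direction and call, 28 kept direction and lost the call (15 without the run term, 12 in the first run alone, 1 in the second alone) and 0 reversed. The 35 were chosen for the same sign in both runs, so the single-run refits could not reverse any. Each member had 1 probe set, so averaging probe sets could not change its difference. Without the run term the counts of members higher and lower were 6 and 4 (Wnthigh against Wntnegative), 4 and 2 (Wntlow against Wntnegative) and 2 and 2 (Wnthigh against Wntlow); that fit carries the offset between runs as residual spread. In the first run alone they were 5 and 0 by limma in Wntlow against Wntnegative (16 and 8 at an unadjusted p under 0.05, with 8.4% of all genes called) and 7 and 4 in Wnthigh against Wntlow (15 and 13 unadjusted, 10.9% of all genes). In the second run alone 12 were lower in Wnthigh against Wntnegative (14 unadjusted, 26.2% of all genes in either direction). Each run has 9 arrays. With the experiment number as a fixed replicate block the counts were 20 and 16, 14 and 12, and 17 and 16, and all 35 differences stayed called, while 8 smaller ones changed their call, namely those of B3gnt8, Fut10, Galnt11, B4galt3 (1 each), Galnt1 and St6galnac3 (2 each); as a random block they were 20 and 19, 14 and 15, and 16 and 14. Leaving out each experiment in turn gave 16 to 20 higher and 14 to 18 lower in Wnthigh against Wntnegative, 12 to 15 and 9 to 16 in Wntlow against Wntnegative, and 15 to 16 and 12 to 14 in Wnthigh against Wntlow. Array centring, quantile normalization, a filter on dim genes, averaged probe sets, 2 groups at a time and a trended variance kept each count within 1.5 times. The omission of the Wntlow arrays of experiments 4 and 3 was chosen after seeing the data. Differences at background are bounds, and an olfactory background is lower than the 5222 intronic control probe sets, whose 95th percentiles were 8.43 to 10.02 in the first run and 7.22 to 8.95 in the second.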

Other observations

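Some probe sets hold exactly the same deposited value, to 3 decimals, on all 3 arrays of a group in a run. In the second run B4galt5 and Galnt1 did so in Wntlow, B4galt5 at 5.23 and Galnt1 at 6.29. Among the 63 members 6 had such a group in Wntlow in each run and 2 in each run of Wnthigh and of Wntnegative; over all genes the share was 3.98% to 8.82% by group and run. Such a group has no spread within itself. It can still leave residuals in the fit, because the run term is shared by all groups.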
